A study of Mus musculus with 65 samples.

Results

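The p2 progenitors of the ventral spinal cord were followed over 1 day of differentiation, from day 4 to day 5. The 9 p2 libraries of these days, out of 65 in the series, were chosen by their labels for cell type and day, with no use of the measured values. HM1 mouse embryonic stem (ES) cells had been taken through a neuromesodermal progenitor (NMP) stage and then given retinoic acid from day 3 together with SAG, a small molecule that activates the hedgehog receptor component Smoothened. Cells were fixed, stained for transcription factors and sorted, and p2 was the fraction with SOX2, PAX6 and NKX6.1 but without OLIG2 or NKX2.2. The expression of genes was measured by sequencing of polyadenylated RNA recovered from the sorted cells.

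On day 4 there were 3 p2 libraries, replicate 3 at 10 nM SAG and replicates 2 and 3 at 100 nM. On day 5 there were 6, replicates 1, 2 and 3 at each of these 2 concentrations. All came from the same ES cell line and had been exposed to retinoic acid, and replicates were independent differentiations. The authors had removed libraries that failed quality criteria, and day 4 had fewer libraries and a larger share of 100 nM than day 5. Cell types sorted at the same SAG concentration may come from the same cultures. If equal replicate numbers mark the same differentiation, day 4 rested on replicates 2 and 3 alone. The main fit treated all libraries as independent. The sort defines p2 by protein in a dish, so the cells of a p2 library are those inside a gate and not cells taken from a place in the embryo.

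The p2 domain lies in the middle of the ventral neural tube, dorsal to the progenitors of motor neurons (pMN) and ventral to the p1 and p0 progenitors (sorted together here as p0-1), and forms the V2 interneurons. Neural progenitors first lose the genes of the posterior growth zone from which they came. They then start to release single cells into neuronal differentiation, a step in which proneural basic helix-loop-helix (bHLH) factors raise Notch ligands and the Notch signal received by neighbours keeps those neighbours dividing. Hox genes, meanwhile, are opened in the order of their position in each cluster and give the cells their level along the body axis.

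Between day 4 and day 5 the genes that rose in p2 included Gadd45g, Neurog1, Dll3 and Dll4 (2 of 19 proneural and 2 of 26 Notch pathway genes), Pou3f3 and Pou3f2, Hoxb3, Hoxb4 and Hoxd3 (3 of 21 Hox genes) and the microRNA host transcripts Mir100hg, Mir99ahg and Mir124a-1hg. Those that fell included Fst and Nkx1-2 (2 of 20 neuromesodermal genes), Hes3 and Aldh1a2. Of 13964 genes tested, 77 passed an adjusted p below 0.05 with a change of more than 2-fold in limma, which was 0.551% of the genes tested. At an adjusted p below 0.01 there were 35 (0.251%), with no limit on the fold 83 (0.594%, 41 of them higher, 0.294%), and at an unadjusted p below 0.05 there were 960 (6.87%). On day 5, 40 genes were higher (0.286%) and 37 lower (0.265%). With quantile normalisation 54 were higher and 20 lower, with edgeR 21 and 5, and with DESeq2 316 and 193. In the text, "rose", "fell" and "called" refer to this threshold, a value is in normalised reads, a log2 change is day 5 minus day 4 on the scale log2(value + 1) with its standard error (SE), and an adjusted p is from limma with Benjamini-Hochberg adjustment unless another tool is named. In bulk samples fewer cells that express a gene and less RNA of it per cell cannot be told apart.

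The calls differed in how much they rested on single libraries. When each of the 9 p2 libraries was left out in turn, 21 of the 77 genes kept their call in every fit, 10 higher and 11 lower. No fit left out both day 4 libraries of replicate 3, which may share a differentiation. The day 4 libraries carried most weight, since the count of called genes was 38 without replicate 2 at 100 nM and 34 without replicate 3 at 100 nM. With edgeR, 26 genes were called, 21 higher and 5 lower, and all 26 were among the 77. At 100 nM alone 24 genes were called and at 10 nM alone 10, and 6 of the 77 were called at both concentrations. These were Gadd45g, Ckb and Slc39a14, which were higher, and Fst, Hes3 and Aldh1a2, which were lower.

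The p2 libraries held 9133475 to 10702547 reads on day 4 and 7808243 to 12228329 on day 5. The day 4 libraries had 13344 to 14433 genes with a read and the day 5 libraries 12548 to 13065, with no overlap. With the number of genes detected added to the model after the data were seen, 53 genes were called, 35 higher and 18 lower. The median log2 change over all genes tested was -0.11, and it was 0.02 with edgeR, 0.04 with DESeq2, -0.03 after quantile normalisation and 0.11 with the number of genes detected. The 6 p2-like markers (Sox2, Pax6, Nkx6-1, Irx3, Irx5 and Foxn4) summed to 5799 to 7149 on day 4 and 7310 to 11280 on day 5. Each of the first 5 had reads in all 9 libraries, while Foxn4 was at 0 in 1 library of each day, and genes shared with other neural progenitors, above all Sox2 and Pax6, make up much of the sum.

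**Figure D1:**
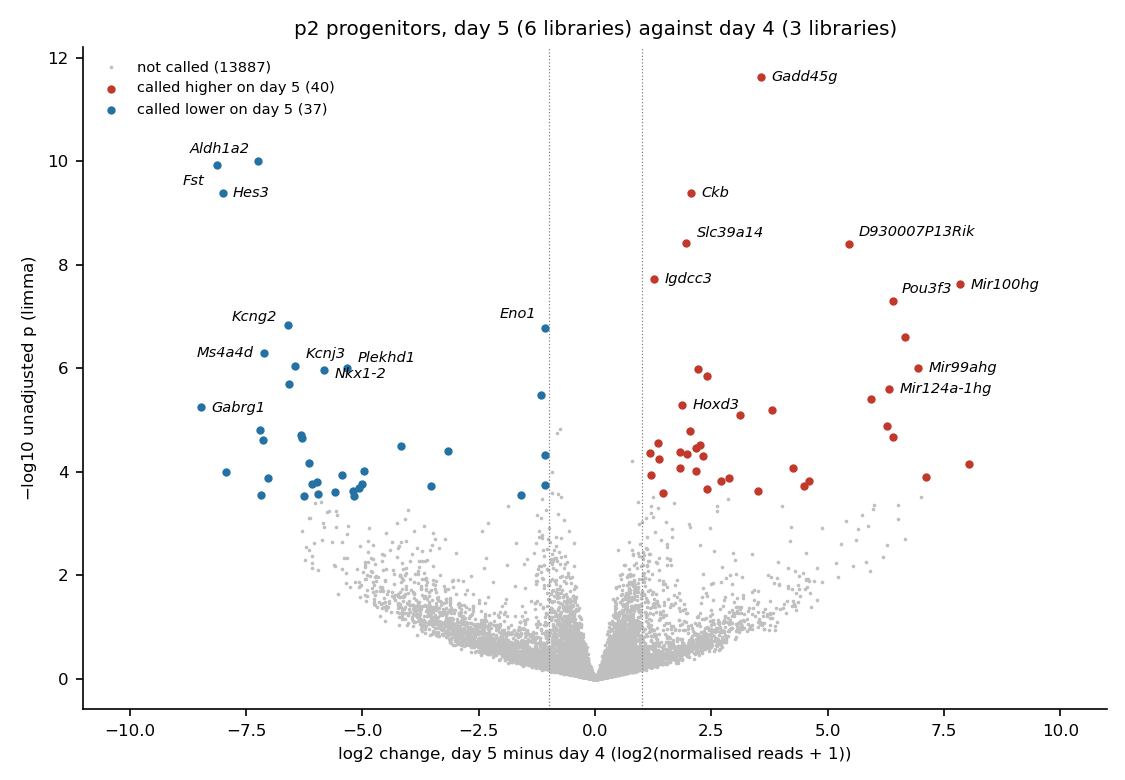
Change of every tested gene in p2, with the log2 change from day 4 to day 5 on the x axis and minus log10 of the unadjusted limma p on the y axis. The 40 genes called higher are red, the 37 called lower are blue, and names mark 20 of the 21 that kept their call without any 1 of the 9 libraries.

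Gadd45g and Neurog1 were the called genes of the step into neurogenesis. Gadd45g (chr13:51846675-51848474), a stress-response family member that proneural factors switch on in cells leaving the cycle, had 514.2 normalised reads at 10 nM and 304.5 and 233 at 100 nM on day 4. On day 5 its lowest value was 2674, the median 3624 and the highest 7737. No day 5 library came near the day 4 range. Its mean rose 11.9-fold, with a log2 change of 3.55 (SE 0.38, adjusted p = 3.33e-08), the smallest adjusted p of all genes tested, and edgeR gave an adjusted p of 2.76e-06.

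Neurog1 (chr13:56250484-56252180), a proneural bHLH factor, had 9.465, 2.744 and 0.9067 normalised reads on day 4. On day 5 it had 214.9, 126.7 and 158.1 at 10 nM and 37.41, 42.5 and 36.29 at 100 nM. Every day 5 library was above every day 4 library, and on day 5 the 3 libraries at 10 nM were above the 3 at 100 nM. The log2 change was 4.26 (SE 0.99, adjusted p = 0.0221), and it lost its call in 5 of the 9 fits that left out 1 library and with edgeR (adjusted p = 0.272).

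The Notch ligands moved unequally. Dll4 (chr2:119325784-119335666), a ligand used in V2 progenitors, had 9.974 normalised reads in day 4 replicate 3 at 100 nM and none in the other 2 day 4 libraries. It had 28.4 to 1354 on day 5, with a median of 400.7, and all 6 libraries were above day 4. Its log2 change was 7.11 (SE 1.70, adjusted p = 0.0289), and it was lost in 4 of the 9 fits without 1 library, with the number of genes detected in the model and with edgeR (adjusted p = 0.237). Dll3 (chr7:28293555-28301785), a ligand that acts inside the cell that makes it, had 193.5, 444.5 and 340.9 on day 4. It had 898.1 to 4987 on day 5, with a median of 1282, and again the groups did not overlap. The log2 change of Dll3 was 2.40 (SE 0.60, adjusted p = 0.0407). It lost its call in 6 of the 9 fits without 1 library, with the replicate number as a block, with the number of genes detected in the model and with edgeR (adjusted p = 0.0798). Dll1, the ligand most widely used in the spinal cord, had 1265 to 1411 on day 4 and 1043 to 3059 on day 5, so that the days overlapped (adjusted p = 1). The exons of Dll4 share bases with those of Gm14207 on the other strand, and the libraries do not mark strand.

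Of the 19 tested proneural and commitment factors 2 were called, Gadd45g and Neurog1, both higher, and their median log2 change was 2.30 against -0.11 over all genes tested. All 19 log2 changes were above 0, and 6 of the 19 had every day 5 library above every day 4 library, a pattern shown by 2.79% of the genes tested. With no filter on low values 21 of 22 were above 0, and at 100 nM alone 18 of 19. This list and the others were chosen with earlier results of these data known, so such shares describe the lists and are not a test. Neurod4 had 9.067 to 48.38 on day 4 and 176.6 to 1159 on day 5 (adjusted p = 0.69), and Hes6, which promotes neuronal differentiation, had 445.9 to 620.2 and 929.5 to 2174 (adjusted p = 0.0711). Both had separate ranges on the 2 days but did not pass the threshold. Sox11, Sox4 and Btg2, the most abundant members not called, had log2 changes of 0.73, 0.30 and 1.20.

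Of the 26 genes of the Notch pathway 2 were called, Dll3 and Dll4, both higher, and the median log2 change was 0.62. The Notch effector Hes5, a repressor of proneural genes, had 4283 to 7372 normalised reads on day 4 and 6786 to 11840 on day 5 (log2 change 0.69, SE 0.33, adjusted p = 0.69). The ligand Jag1 had a log2 change of -0.42 and the glycosyltransferase Rfng one of 0.55, and neither was called.

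Beside them 2 POU factor genes, Pou3f3 and Pou3f2, rose. Pou3f3 (chr1:42695768-42700209), a POU factor of neural progenitors and neurons, had 16.83, 2.744 and 0 normalised reads on day 4. On day 5 it had 209.7 to 523.7, with a median of 344.4, so that every day 5 library was far above day 4. Its log2 change was 6.41 (SE 0.99, adjusted p = 7.11e-05; edgeR adjusted p = 0.0115), and its mean was 55.6-fold higher. Pou3f2, a related factor that can drive cells towards neurons, had 603.6 to 869.7 on day 4 and 2576 to 4324 on day 5 (log2 change 2.05, SE 0.43, adjusted p = 0.00695), without overlap. Its adjusted p was 0.1 without day 4 replicate 2 at 100 nM.

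Miat, a long noncoding RNA of the nervous system, had 296.6, 105.2 and 0 normalised reads on day 4. On day 5 it had 1611 to 7046, with a median of 2917, and its mean was 26.7-fold higher. The log2 change was 6.65 (SE 1.11, adjusted p = 0.000264), and the adjusted p was 0.142 without day 4 replicate 3 at 100 nM, the library at 0. The noncoding RNA D930007P13Rik had 1.829 to 33.65 on day 4 and 201.2 to 1025 on day 5 (log2 change 5.45, SE 0.76, adjusted p = 7.96e-06), and it kept its call in every fit without 1 library.

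Of the 28 early neuronal genes 1 was called, Pou3f2, and their median log2 change was 0.23. The members spread in both directions, with 7 of 28 above and 3 below day 4 in every day 5 library, against 2.79% and 3.48% of the genes tested. Dcx, which encodes a microtubule protein of migrating neurons, was at 0 in the 3 day 4 libraries and had 31.56 to 335.2 on day 5 (log2 change 7.0, SE 1.80, adjusted p = 0.0508). Tagln3, a neuronal actin-binding protein gene, had 83.22 to 285 and 512.8 to 1712 (adjusted p = 0.0529), and Rtn1, a reticulon gene, had a log2 change of -0.21. Crmp1, an axonal protein gene, had 1223 to 1870 on day 4 and 11.31 to 923.8 on day 5 (log2 change -2.43, SE 0.71, adjusted p = 0.134). The 8 markers of postmitotic neurons summed to 1076 to 1437 on day 4 and 978.2 to 2764 on day 5, which overlapped, and 0 of the 8 were called. The part of postmitotic cells in the neurogenic changes was not tested.

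**Figure D2:**
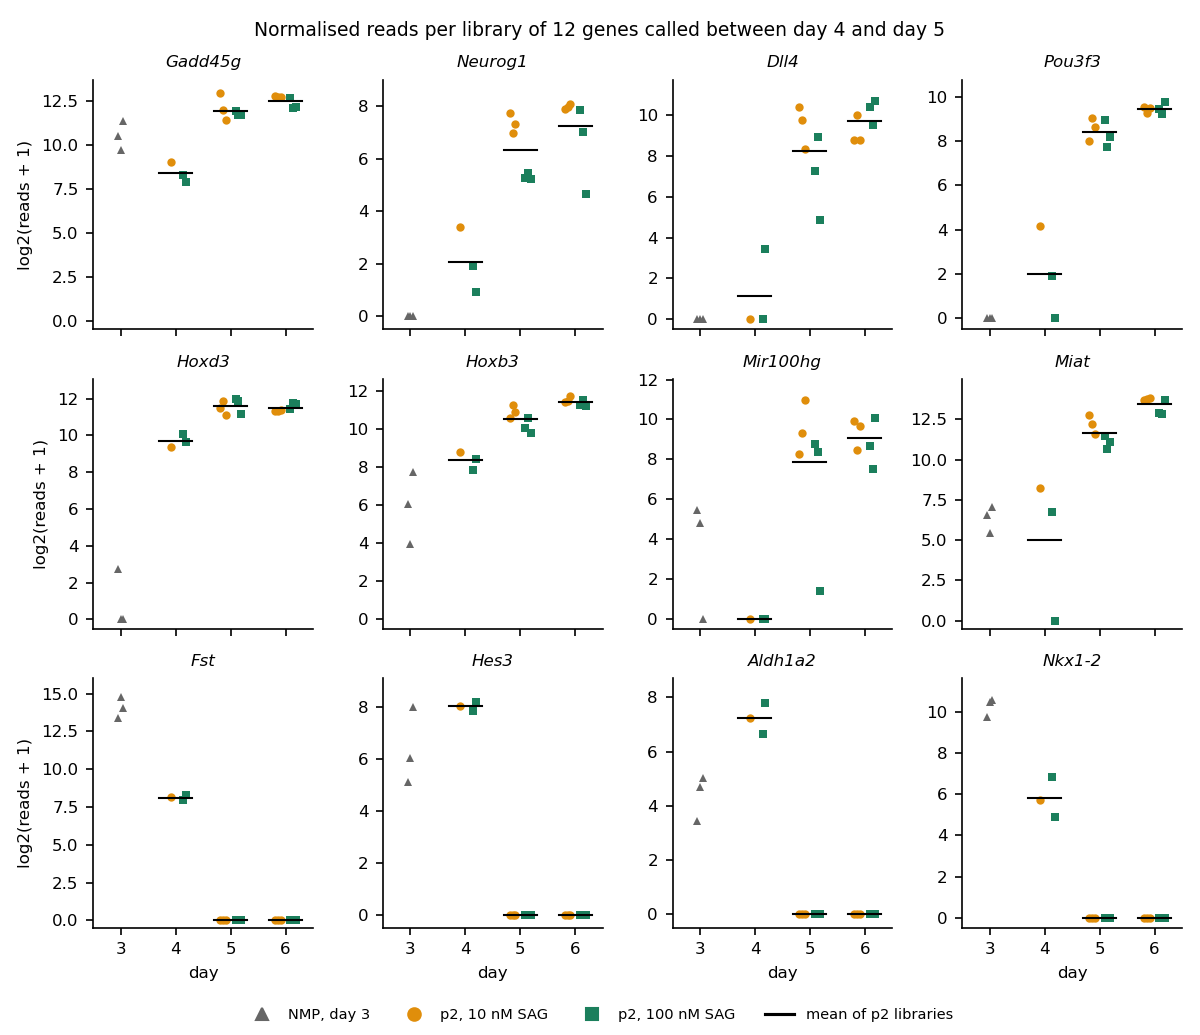
Normalised reads of 12 called genes as log2(reads + 1) on the y axis against the day on the x axis. Triangles are the 3 NMP libraries of day 3, circles p2 at 10 nM SAG, squares p2 at 100 nM and lines the mean of the p2 libraries of a day. The 6 day 5 libraries of Fst, Hes3, Aldh1a2 and Nkx1-2 are at 0, and those of Gadd45g, Pou3f3, Hoxd3 and Hoxb3 sit above every day 4 library.

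Host transcripts of microRNAs were among the genes with the largest changes. The microRNAs with names ending in 5p within the loci of Mir100hg and Mir99ahg, and the one at the called locus Mir219a-2, are given. Those with names ending in 3p, among them let-7a-2-3p within Mir100hg, are left out. The seed (bases 2 to 8) is in capitals, because it shows the family of each microRNA.
miR-100-5p: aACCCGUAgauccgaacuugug
miR-99a-5p: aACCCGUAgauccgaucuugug
miR-125b-5p: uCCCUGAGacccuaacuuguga
let-7c-5p: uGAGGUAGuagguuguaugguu
miR-219a-5p: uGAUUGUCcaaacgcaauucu
Sequences and positions are from RefSeq on GRCm38.p6. miR-100-5p (chr9:41531437-41531458) and miR-99a-5p (chr16:77598940-77598961) have the same seed, ACCCGUA. miR-125b-5p has 1 copy in each locus (chr9:41581940-41581961 and chr16:77646279-77646300), and let-7c-5p lies at chr16:77599672-77599693. miR-219a-5p lies on the minus strand at chr2:29845689-29845709. No mature microRNA was measured, since the libraries were made from polyadenylated RNA.

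Mir100hg (chr9:41376526-41615183) was at 0 in the 3 day 4 libraries. On day 5 it had 303.9, 634.5 and 2003 normalised reads at 10 nM and 438.5, 330.8 and 1.578 at 100 nM. Replicate 3 at 100 nM stood far below the other 5 libraries, close to day 4. Against 3 reads per library the mean was at least 215-fold higher, and the log2 change was 7.84 (SE 1.17, adjusted p = 3.74e-05; edgeR adjusted p = 0.000865). Of the microRNA hairpins at this locus, that of Mir100, counted as a gene of its own, was at 0 on day 4 and had 0 to 67.22 on day 5 (median 37.12). Those of Mirlet7a-2 and Mir125b-1 were at 0 in all 9 libraries.

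Mir99ahg was counted over chr16:77329328-77558428, upstream of the microRNAs, which lie inside the longer locus of the GENCODE vM21 annotation. It was at 0 in the 3 day 4 libraries and had 254.7, 59.68 and 175.8 normalised reads at 10 nM and 156.6, 98.87 and 80.47 at 100 nM on day 5. All 6 day 5 libraries had reads, and the mean was at least 47.9-fold above 3 reads per library. Its log2 change was 6.95 (SE 1.24, adjusted p = 0.000789), and edgeR gave an adjusted p of 0.0113.

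Mir124a-1hg (chr14:64588115-64593961), the host of a copy of the neuronal miR-124, had 0, 7.316 and 0 normalised reads on day 4 and 101.6 to 259.4 on day 5 (median 153.1). The days were apart, with a log2 change of 6.31 (SE 1.18, adjusted p = 0.0016). It kept its call in every fit without 1 library but not with edgeR (adjusted p = 0.148). Its exons overlap those of Gm51272 on the other strand. Mir219a-2, the locus of a microRNA known from oligodendrocytes, had 334.4, 240.5 and 408.9 on day 4 and 613.5 to 1124 on day 5 (log2 change 1.36, SE 0.31, adjusted p = 0.0165). Its locus coincides with Mir219b on the other strand, so the reads of these 2 cannot be told apart, and reads of a locus of 97 bases are not those of a mature microRNA.

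A promoter of Mir100hg (chr9:41474643-41474942 on the plus strand, 1 of 2 in the RefSeq table) holds the E-box CAGCTG 68 bases before the start, in capitals, the letters that bHLH factors bind.
Mir100hg promoter: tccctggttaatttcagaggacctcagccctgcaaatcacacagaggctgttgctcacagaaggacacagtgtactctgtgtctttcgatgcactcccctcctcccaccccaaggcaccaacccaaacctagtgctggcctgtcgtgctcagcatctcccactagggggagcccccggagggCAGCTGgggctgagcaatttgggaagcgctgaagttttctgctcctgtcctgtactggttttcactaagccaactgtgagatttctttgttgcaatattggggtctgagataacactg
It is shown because, of the named genes with an E-box in a promoter, Mir100hg had the largest log2 change, and a match of letters is not a bound site. Promoters of 300 bases were found for 29 of the 40 genes called higher, 28 of the 37 called lower and 10955 of the 13964 tested. An E-box CAGCTG or CAGATG, on either strand, was in 20.6% of the 34 promoters of genes called higher, 32.4% of the 34 of genes called lower and 25.2% of the 13931 of all genes tested. The GLI core GACCACC was in 2.94%, 0% and 2.97% of these. The CCAAT box was in 47.1%, 50% and 38%, TATAAA in 8.82%, 14.7% and 7.12%, and the SOX letters ACAAAG or ACAATG in 23.5%, 11.8% and 20.1%.

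Of the anterior Hox genes, which set the level along the body axis, Hoxd3, Hoxb3 and Hoxb4 rose. Hoxd3 (chr2:74711993-74748271) had 660.4, 1080 and 800.6 normalised reads on day 4 and 2203 to 3963 on day 5 (median 3291). The groups were separate, the log2 change was 1.88 (SE 0.36, adjusted p = 0.0028), and the call was kept in every fit without 1 library and with edgeR (adjusted p = 0.00217). Hoxb3 (chr11:96323126-96347930) had 436.4, 230.5 and 339.1 on day 4 and 870.9 to 2448 on day 5 (median 1522). Its log2 change was 2.17 (SE 0.47, adjusted p = 0.0118), and the call was lost with quantile normalisation and without either day 4 library at 100 nM (adjusted p up to 0.184). Its neighbour Hoxb4 (chr11:96318267-96321638) had a log2 change of 2.88 (SE 0.69, adjusted p = 0.0297), from 37.5 to 89.39 on day 4 to 274.5 to 609 on day 5. Hoxb4 lost its call in 4 of the 9 fits without 1 library, with the number of genes detected in the model and with edgeR (adjusted p = 0.0624).

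Of the 21 Hox genes tested these 3 were called higher and 0 lower. The median log2 change was 1.13, and 9 of the 21 had every day 5 library above every day 4 library, against 2.79% of the genes tested. With no filter on low values the median of 36 Hox genes was 0.185, with 20 log2 changes above 0 and 10 below. The paralogues Hoxa4 and Hoxc4 had separate ranges without a call. Hoxa4 had 0 to 9.145 on day 4 and 55.44 to 153.5 on day 5 (adjusted p = 0.194), and Hoxc4 had 19.98 to 60.75 and 107.3 to 331.4 (adjusted p = 0.124). Hoxb2 and Hoxa2, more anterior members, had log2 changes of 1.02 and 1.13 and were not called. Haglr, a noncoding RNA of the HoxD cluster, had 92.54, 383.2 and 276.6 on day 4 and 812.5 to 1307 on day 5 (log2 change 2.25, SE 0.49, adjusted p = 0.0108), but its adjusted p was 0.371 without day 4 replicate 3 at 10 nM. The exons of Hoxb3 and Hoxd3 share bases with Hoxb3os and Gm38462 on the other strand, whose reads cannot be told apart from theirs.

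Nr2f1, a nuclear receptor counted among the developmental timing genes, had 187.2, 110.7 and 275.6 normalised reads on day 4. On day 5 it had 786.3 to 2526 (median 1635), with no overlap and a log2 change of 3.11 (SE 0.62, adjusted p = 0.00397), and the adjusted p was 0.0912 without day 4 replicate 2 at 100 nM. It was the 1 called gene of the 20 timing genes, and the median log2 change of the list was -0.21. The other abundant members, the cyclin Ccnd2, the cell surface protein Prtg and the RNA-binding protein Igf2bp1, had log2 changes of -0.05, -0.36 and -0.32 and were not called. Exons of Nr2f1 overlap those of A830082K12Rik on the other strand.

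Other called genes belonged to the Wnt, axon guidance and radial glia lists. Wnt7a, a Wnt ligand, had 57.84, 0 and 0 normalised reads on day 4 and 123.1 to 521.3 on day 5 (log2 change 6.28, SE 1.29, adjusted p = 0.0064), and it was the 1 called gene of 40 Wnt pathway genes, whose median was 0. The Wnt inhibitor Sfrp1, the R-spondin receptor Lgr4 and the Wnt receptor Fzd3 had log2 changes of -0.75, 0.64 and 0.61 and were not called. The netrin receptor Unc5a had 177.7, 285.3 and 687.3 and then 1390 to 2307 (log2 change 2.41, SE 0.44, adjusted p = 0.00101), and the semaphorin receptor Plxna2 had 491.4 to 785.6 and then 1420 to 3180 (log2 change 1.82, SE 0.40, adjusted p = 0.0134). These 2 were the called genes among 49 axon guidance genes, whose median was -0.04 in limma and 0.29 after quantile normalisation. The call of Plxna2 was lost with quantile normalisation and without either day 4 library at 100 nM. That of Wnt7a was lost without either of the same libraries (adjusted p up to 0.169), and that of Unc5a without the day 4 library at 10 nM (adjusted p = 0.0633). Efna5, Plxnb2 and Plxna1, of the same list, had log2 changes of 0.59, -0.20 and 0.30 and were not called. The exons of Unc5a share bases with Hk3 on the other strand. Ednrb, the receptor for endothelin and a gene of radial glia, had 2375 to 3323 and then 4037 to 8230 (log2 change 1.20, SE 0.28, adjusted p = 0.0271). It was the 1 called gene of 20 radial glia and gliogenic genes, and it lost its call in 5 of the 9 fits without 1 library and with edgeR (adjusted p = 0.0798). The intermediate filament Vim, of the same list, had 1648 to 1739 and then 3318 to 4478, without overlap, and an adjusted p of 0.064, and Qk and Nes had log2 changes of 0.05 and 0.50.

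Some of the calls that depended least on single libraries were on abundant genes outside these lists. Ckb, the brain creatine kinase, had 1385, 1648 and 2628 normalised reads on day 4 and 6430 to 10140 on day 5 (log2 change 2.07, SE 0.26, adjusted p = 1.16e-06). Slc39a14, a zinc and manganese transporter, had 757.2, 795.7 and 934.8 and then 2322 to 4284 (log2 change 1.95, SE 0.27, adjusted p = 7.96e-06). Igdcc3, an immunoglobulin superfamily membrane protein gene, had 4187 to 6379 and then 10320 to 14950 (log2 change 1.26, SE 0.19, adjusted p = 3.31e-05). In each of the 3 the days did not overlap and edgeR made the same call.

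Other called genes rested on fewer libraries. Foxe3, a forkhead factor, had 69.41, 0 and 0 normalised reads on day 4 and 127.9 to 532.1 on day 5 (log2 change 5.92, SE 1.14, adjusted p = 0.00232). The kinase gene Stk32a was at 0 on day 4 and had 15.78 to 168.5 on day 5, at least 37.2-fold above 3 reads per library. The log2 change of Stk32a was 6.41 (SE 1.36, adjusted p = 0.00855), and Foxe3 and Stk32a each lost their call in 2 of the 9 fits without 1 library. Moxd1, a monooxygenase-like gene, had 68.59 to 352.7 and then 1805 to 7768 (log2 change 4.61, adjusted p = 0.0334) and lost its call in 6 of the 9 fits without 1 library. Sema6c, a semaphorin gene, had 0.9067 to 80.48 and then 142 to 387.2 (log2 change 3.80, SE 0.75, adjusted p = 0.00338; edgeR adjusted p = 0.246), with an adjusted p of 0.356 without the day 4 library at 100 nM, replicate 3. Glra1, a subunit of the glycine receptor, had 23.58 to 83.22 and then 175.9 to 1061 (log2 change 3.50, SE 0.88, adjusted p = 0.044) and lost its call in 7 of the 9 fits. Gbp8, of the guanylate-binding protein family, whose members are similar in sequence, was at 0 on day 4 and had 621.2 to 1011 in 5 day 5 libraries and 0 in replicate 3 at 100 nM. The log2 change of Gbp8 was 8.03 (SE 1.84, adjusted p = 0.0192), and its call was lost in 5 of the 9 fits. None of the genes of this paragraph was called with edgeR (adjusted p from 0.108 to 0.246).

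The genes lost on day 5 included some of the NMP stage. Fst (chr13:114452262-114458951), which encodes the activin and BMP inhibitor follistatin, had 279.7, 248.8 and 307.4 normalised reads on day 4 and 0 in all 6 day 5 libraries. It was at 0 in all 6 p2 libraries of day 6 as well. Against 3 reads per library its mean was at least 95.2-fold lower on day 5, and the log2 change was -8.12 (SE 0.99, adjusted p = 5.44e-07; edgeR adjusted p = 0.000968). Nkx1-2, a homeobox gene of the posterior growth zone, had 52.58, 114.3 and 29.02 on day 4 and 0 in all 6 on day 5. Its mean was at least 22.3-fold lower (log2 change -5.83, SE 1.04, adjusted p = 0.000789). Neither edgeR (adjusted p = 0.181) nor DESeq2 called Nkx1-2.

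These 2 were the called genes of 20 neuromesodermal genes, and the median log2 change of the list was -0.23 in limma and 0.09 after quantile normalisation. The 5 NMP markers (T, Cdx2, Nkx1-2, Fgf8 and Wnt3a) summed to 52.58 to 116.1 on day 4 and 0 to 56.03 on day 5, and Wnt3a was at 0 in all 9 libraries. The part of NMPs left among the day 4 cells in these calls was not tested. The 3 members with the highest means, Sp8, Sall4 and Grsf1, had log2 changes of 0.40, -0.66 and 0.24.

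Hes3 (chr4:152285972-152291662), a Hes repressor of early neural progenitors, had 258.7, 225.9 and 288.3 normalised reads on day 4 and 0 in the 6 libraries of day 5. The mean was at least 88-fold lower, with a log2 change of -8.01 (SE 1.02, adjusted p = 1.16e-06; edgeR adjusted p = 0.0138). Aldh1a2 (chr9:71215789-71296243), the enzyme that makes retinoic acid in the embryo, had 149.3, 100.6 and 223.1 and then 0 in all 6, at least 53.9-fold lower. The log2 change of Aldh1a2 was -7.24 (SE 0.88, adjusted p = 5.44e-07), but neither edgeR (adjusted p = 0.108) nor DESeq2 called Aldh1a2. It was the 1 called gene among 21 of the retinoic acid pathway. The abundant binding proteins Crabp1 and Crabp2 and the corepressor Ncor1 were not called, with log2 changes of 0.65, 0.09 and 0.39.

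Gabrg1 had the largest fall of the 37 genes called lower in limma. Gabrg1, a subunit of the GABA-A receptor, had 331.3, 567.9 and 234.8 normalised reads on day 4 and 0 in all 6 day 5 libraries, at least 129-fold lower (log2 change -8.47, SE 1.66, adjusted p = 0.00305; edgeR adjusted p = 0.128). The potassium channel genes Kcnj3 and Kcng2 had 60.36 to 122.4 and 67.68 to 119.7 on day 4 and 0 in all 6 day 5 libraries, with log2 changes of -6.44 (SE 1.14, adjusted p = 0.000789) and -6.61 (SE 1.07, adjusted p = 0.000188). Ms4a4d, of a family of membrane-spanning proteins, had 100.6 to 223.1 and then 0 in all 6 (log2 change -7.12, SE 1.23, adjusted p = 0.0005). With edgeR Kcnj3, Kcng2 and Ms4a4d were not called (adjusted p = 0.108, 0.273 and 0.213), and DESeq2 called neither channel gene. Like Fst, Hes3, Aldh1a2 and Nkx1-2, these 4 kept their limma call in every fit without 1 p2 library and stayed at 0 in the 6 p2 libraries of day 6.

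Several other genes that fell were not at 0 in every day 5 library. Ifitm1, an interferon-induced membrane protein gene, had 1621, 1222 and 1671 on day 4 and 0 to 100.6 on day 5 (log2 change -7.94, SE 1.87, adjusted p = 0.0252). Its relative Ifitm2 had 3052 to 3391 and then 1126 to 1849 (log2 change -1.07, SE 0.24, adjusted p = 0.0143). Trh, the thyrotropin-releasing hormone gene, had 543.1 to 955.7 and then 0 in 4 libraries and 121.2 and 145.2 in the other 2 (adjusted p = 0.0299). Foxh1, a forkhead partner of Smad proteins, had 300.1 to 366.7 and then 0 in 5 libraries and 156.2 in replicate 3 at 100 nM (adjusted p = 0.0486). Foxh1 lost its call in 8, Trh in 7, Ifitm1 in 6 and Ifitm2 in 4 of the 9 fits without 1 library, and Ifitm2 also lost it with the replicate number as a block. With edgeR Foxh1, Trh and Ifitm1 were not called (adjusted p = 0.446, 0.799 and 0.272), while Ifitm2 was. DESeq2 called neither Trh nor Ifitm1. The other genes with large falls were Zfp345, a zinc finger gene (log2 change -7.14), AW551984 (-7.20), the asparaginase gene Aspg (-6.31), the glycosyltransferase gene Galnt3 (-6.25), the phospholipase gene Pla2g7 (-5.98, with a day 5 mean of 0) and the carbonic anhydrase gene Car12 (-5.60). None of these was called with edgeR (adjusted p from 0.108 to 0.492). Galnt3 and Car12 lost their call in 8 of the 9 fits without 1 library, Pla2g7 in 7, Zfp345 in 3, Aspg in 2 and AW551984 in 1.

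The calls in both directions depended on the processing. Of the 37 genes called lower, 19 were called with quantile normalisation, 18 with the number of genes detected in the model, 15 with DESeq2 and 5 with edgeR. Of the 40 called higher, the same methods called 36, 31, 40 and 21. With the replicate number as a block 33 of the 37 and 37 of the 40 were called, and at 100 nM alone 11 and 11. The difference between the directions was not tested. Every day 5 p2 library had fewer genes detected than every day 4 library, and the part of this in the calls at low read numbers was not tested.

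Of the genes of glycolysis, Eno1 fell. Eno1 (chr4:150237197-150248873), the glycolytic enolase, had 22210, 21130 and 25870 normalised reads on day 4 and 8892 to 13630 on day 5 (median 10720), with no overlap. Its mean fell 2.11-fold, with a log2 change of -1.09 (SE 0.18, adjusted p = 0.000195; edgeR adjusted p = 0.000645). The call was lost with quantile normalisation and with the number of genes detected in the model. Eno1b, a near-identical copy, had a log2 change of -1.15 (SE 0.22, adjusted p = 0.00195), and reads of the 2 genes may have been exchanged in the counting. The glucose transporter Slc2a1 had 12880 to 18900 and then 6283 to 11310, again without overlap, with a log2 change of -0.93 (SE 0.22, adjusted p = 0.0249) that was below 2-fold.

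Eno1 was the 1 called gene of the 23 glycolysis and lactate genes. The median log2 change of the list was -0.97, and 10 of the 23 had every day 5 library below every day 4 library, a pattern shown by 3.48% of the genes tested. Gapdh and Pkm had log2 changes of -0.45 (SE 0.14, adjusted p = 0.189) and -0.72 (SE 0.22, adjusted p = 0.167). The lactate transporter Slc16a3 had 1129 to 1881 on day 4 and 98.47 to 442.6 on day 5 (log2 change -2.63, SE 1.12, adjusted p = 0.556), and the glucose transporter Slc2a3 had 1776 to 3888 and 276.1 to 1012 (log2 change -2.34, SE 0.79, adjusted p = 0.274). Of other abundant genes that fell, Gpx3, a secreted glutathione peroxidase, had 8530, 11870 and 10990 and then 2284 to 5835 (log2 change -1.59, SE 0.41, adjusted p = 0.0486). Tmem97, a sterol-related membrane protein gene, had 3357 to 3684 and then 1039 to 2969 (log2 change -1.08, SE 0.27, adjusted p = 0.0374). Both had separate ranges and lost their calls in 8 and 6 of the 9 fits without 1 library.

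**Figure D3:**
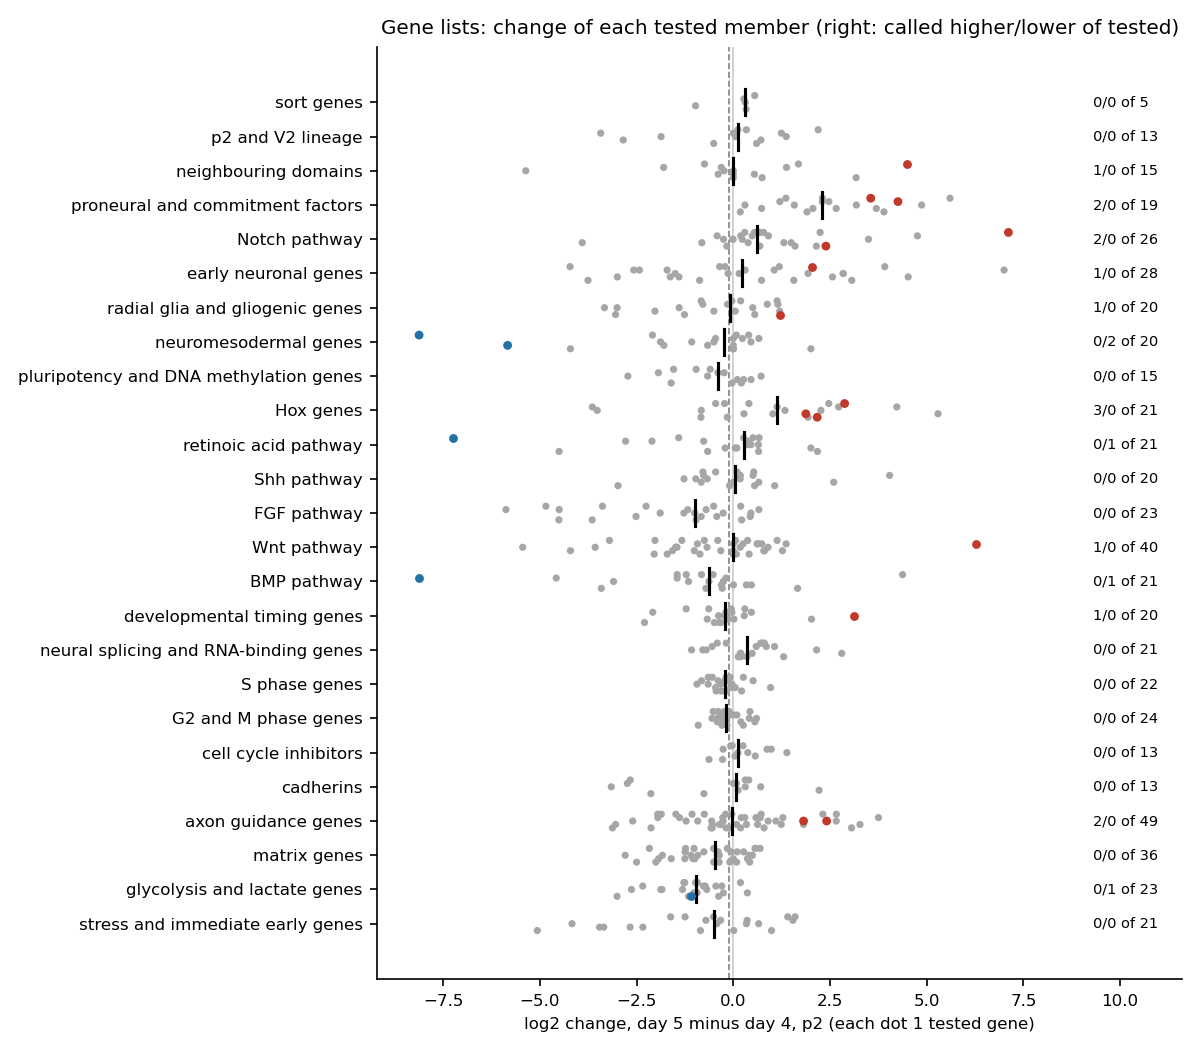
Log2 change from day 4 to day 5 in p2 of each tested gene of 25 lists (1 dot per gene, red called higher, blue called lower, black bar the median of the list). The dashed line is the median of all genes tested (-0.11) and the numbers at the right count the genes called higher and lower of those tested. The proneural list has all 19 dots above 0 and the glycolysis list has its median at -0.97.

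The genes that define the p2 identity did not pass the threshold in limma or edgeR. The sort was made on the proteins of Sox2, Pax6, Nkx6-1, Olig2 and Nkx2-2, so their levels are given as a check of the gate. Sox2 had 1171 to 1682 normalised reads on day 4 and 1480 to 2516 on day 5, Pax6 had 2241 to 3139 and 1847 to 4667, and Nkx6-1 had 143 to 497.8 and 134 to 511.2. Nkx2-2, the gene of p3 progenitors, had at most 5.544 in any of the 9 libraries. Olig2, the gene of pMN progenitors, was present as RNA, with 52.58 at 10 nM and 188.4 and 167.7 at 100 nM on day 4, and with 0, 18.27 and 133.8 at 10 nM and 270.6, 130.3 and 549.1 at 100 nM on day 5. The log2 change of Olig2 was -0.97 (SE 1.37), while its mean was 136.2 on day 4 and 183.7 on day 5. Of the 5 sort genes 0 were called, at unadjusted p below 0.05 as well, and their median log2 change was 0.31. DESeq2 also called 0 of the 5.

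Of 13 tested genes of the p2 domain and the V2 lineage 0 were called, 1 had an unadjusted p below 0.05, and DESeq2 called 2 (Lhx3 and Gata2). Irx3, a homeobox gene of the intermediate neural tube, had 1335 to 1481 on day 4 and 1273 to 2750 on day 5 (log2 change 0.34, SE 0.56, adjusted p = 1). Irx5 had 386.9 to 766.6 and 715.5 to 1570 (log2 change 1.24, SE 0.64, adjusted p = 0.752), and Sox21, a repressor Sox gene of progenitors, had 159.6 to 382.8 and 453.1 to 935.5 (log2 change 1.37, SE 0.75, adjusted p = 0.832). Sox21 had separate ranges on the 2 days and Irx5 did not. Nkx6-2 had 218.7 to 862.4 and 3.316 to 771.5 (adjusted p = 1). The factor Foxn4, which starts V2 differentiation, had 0 to 27.34 on day 4 and 0 to 55.44 on day 5. The factors of V2 neurons were low and uneven, Vsx1 with at most 227.2, Lhx3 with at most 100.4, Gata3 with at most 107.2 and Gata2 with at most 93.09 in a day 5 library, and Lhx4 and Sox14 were at 0 in all 9. Lmo4 and Shox2 had log2 changes of 0.12 and -3.43 and were not called. Bhlhe22 had a log2 change of -0.51, although its mean was 36.9 on day 4 and 87.9 on day 5, where 1 library had 389.7 and 3 had 0.

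**Figure D4:**
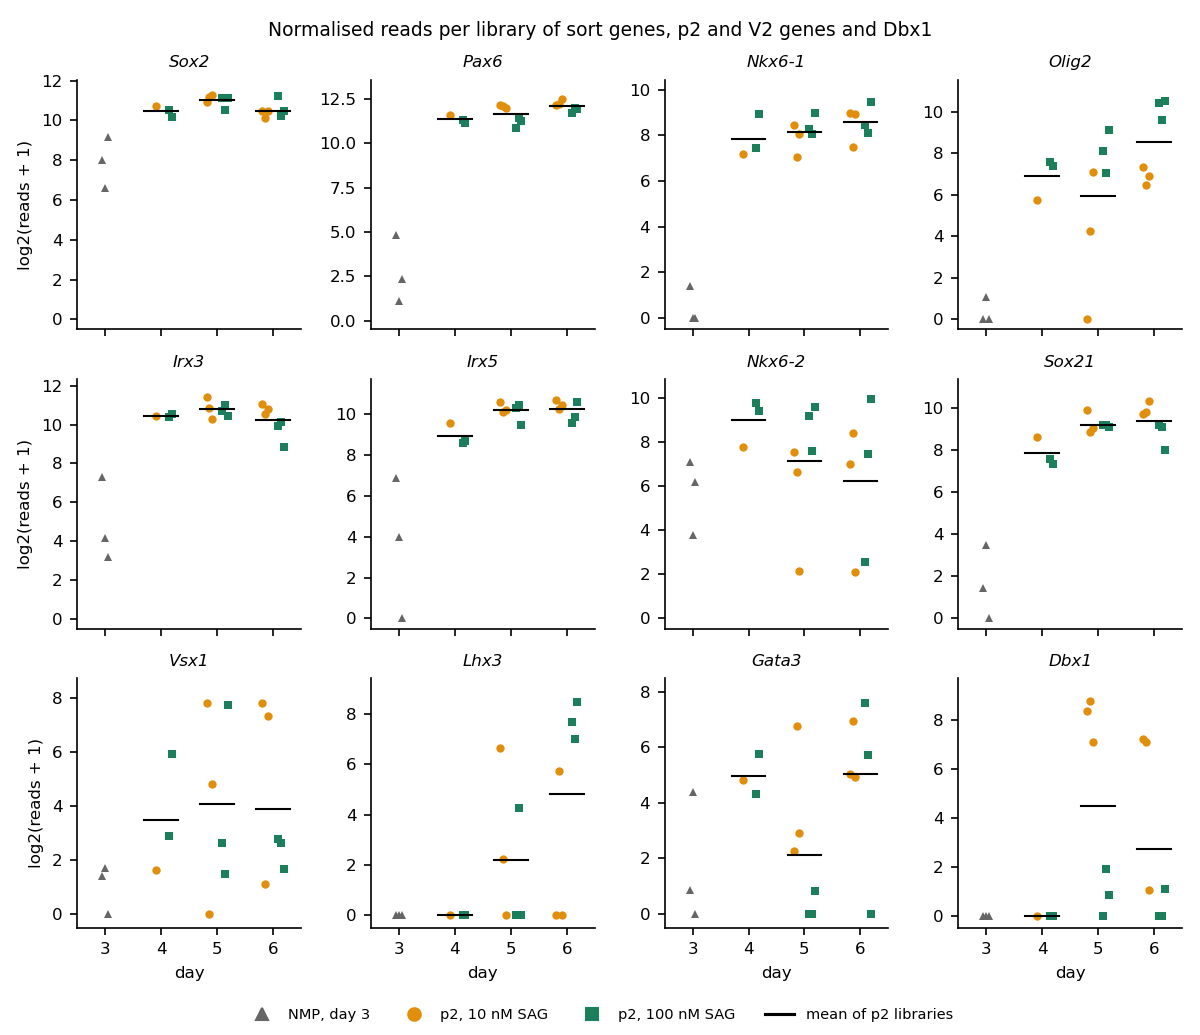
Normalised reads of 12 genes of the sort, the p2 domain, the V2 lineage and the neighbouring domain as log2(reads + 1) on the y axis against the day, with triangles for NMPs, circles for p2 at 10 nM SAG, squares for p2 at 100 nM and lines for the mean of p2. The values of Sox2, Pax6 and Irx3 overlap between days 4 and 5, and Dbx1 is high in the 3 libraries at 10 nM on day 5 and at most 2.772 reads in the 3 at 100 nM.

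The 1 called gene among the 15 of neighbouring domains was Dbx1, a homeobox gene listed among the p0-1 markers. It was at 0 in the 3 day 4 libraries and had 322.9, 429.9 and 133.8 normalised reads in the 3 libraries at 10 nM on day 5 and 0, 2.772 and 0.7889 in the 3 at 100 nM. The groups thus shared the value 0, and the day 5 reads lay almost wholly at 10 nM. The log2 change was 4.49 (SE 1.11, adjusted p = 0.0378). The call was lost in 6 of the 9 fits without 1 library, with edgeR (adjusted p = 0.148), with quantile normalisation and with the number of genes detected in the model. The 4 markers of p0-1 (Dbx1, Dbx2, Prdm12 and Prdm13) summed to 0 to 31.09 on day 4 and 0 to 623.5 on day 5, and day 4 had only 1 library at 10 nM, so that day and SAG concentration are partly confounded for this gene. Prdm8, Foxa2 and Nkx2-9, of the same list, had log2 changes of 3.18, -5.36 and -1.80 and were not called.

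Most of the signalling and cell cycle lists had no called gene in limma, and in those without one edgeR called 0 genes as well. Of 20 Shh pathway genes 0 were called and 2 had an unadjusted p below 0.05. Ptch1, the Shh receptor and a direct target of the pathway, had 2141, 3509 and 5901 normalised reads on day 4 and 1500 to 3184 on day 5 (log2 change -0.77, SE 0.33, adjusted p = 0.586), and Smo and Gas1 had log2 changes of 0.10 and 0.53. Of 23 FGF pathway genes 0 were called, 7 had an unadjusted p below 0.05 and DESeq2 called 2, and the median log2 change was -0.999. Fgf15, an FGF ligand of the neural tube, had 1826 to 3860 on day 4 and 0 to 615.4 on day 5, a separate range with a wide error (log2 change -4.50, SE 2.12, adjusted p = 0.676). The receptor gene Fgfr2 had 2915 to 3090 and then 1326 to 1791 (log2 change -0.96, SE 0.30, adjusted p = 0.185), without overlap, and Fgfr1 had a log2 change of -0.43. Fst was the 1 called gene of 21 BMP pathway genes, whose median was -0.63 in limma, -0.07 with edgeR and -0.03 with DESeq2, and Bmpr1a, Id3 and Smad1 had log2 changes of 0.34, -0.31 and -0.63.

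Of 22 S phase genes and 24 G2 and M phase genes 0 were called, 2 of each list had an unadjusted p below 0.05, and the medians were -0.20 and -0.18. Rrm2, Slbp and Mcm7 had log2 changes of -0.30, -0.39 and -0.19, and Top2a, Mki67 and Cenpf of 0.26, 0.43 and 0.20. The smallest SE among these 6 was 0.18. No gene was called among 13 cell cycle inhibitors (0 at an unadjusted p below 0.05), 13 cadherins (0), 36 matrix genes (6), 21 neural splicing and RNA-binding genes (3), 15 pluripotency and DNA methylation genes (1) and 21 stress and immediate early genes (3). DESeq2 called 0 genes of the Shh, cell cycle, cadherin and matrix lists, and 1, 1 and 2 of the last 3. Uhrf1 and Dnmt1, which maintain DNA methylation, had log2 changes of -0.03 and 0.10. The p53 gene Trp53 and its targets Ccng1 and Cdkn1a had -0.03, -0.26 and 0.25, and the stress genes Hspa5, Ier2 and Atf4 had -0.51, 0.36 and 0.01. Cadherin 6, with 1425 to 1761 on day 4 and 206.7 to 514.2 on day 5 (Cdh6, adjusted p = 0.969), had separate ranges, and Cdh2 and Cdh4 had log2 changes of 0.08 and 0.13. The matrix genes Gpc3, Col18a1 and Sulf2 had log2 changes of -1.24, -0.42 and 0.43, and the splicing regulators Ptbp1, Ptbp2 and Celf1 of -0.18, 0.85 and 0.20.

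Sums of markers of other cells were as follows. The 8 paraxial mesoderm markers summed to 106.2 to 260.2 on day 4 and 42.01 to 395.9 on day 5, the 7 fibroblast markers to 180.9 to 319.1 and 20.51 to 477.5, the 6 neural crest markers to 7.361 to 18.29 and 3.944 to 159.1, and the 4 endothelium markers to 0 to 64.01 and 0 to 313.9. Of the 7 fibroblast markers, Col3a1, Lum, Dcn and Postn were at 0 in all 9 libraries, so the sum came from Col1a1, Col1a2 and Thy1. The 5 floor plate markers summed to 1474 to 2247 and 1101 to 2655, and the 5 motor neuron markers to 0 to 105.2 and 0 to 213. The ranges of all these sums overlapped between the days.

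The same step was set against that of the neighbours, p0-1 on the dorsal side (5 libraries on day 4 and 6 on day 5) and pMN on the ventral side (4 and 6), by testing the difference between the changes. The p0-1 libraries were at 0 and 10 nM SAG, the pMN libraries at 100 and 500 nM and the p2 libraries at 10 and 100 nM. Cell type and SAG concentration are therefore partly confounded in these comparisons. In limma 0 of 13964 genes (0%) differed between the changes of p2 and p0-1, with 276 (1.98%) at an unadjusted p below 0.05, and edgeR called 0 with 311 at an unadjusted p below 0.05. Between p2 and pMN limma also called 0 genes (0%), with 473 (3.39%) at an unadjusted p below 0.05, and edgeR called 0 with 439. DESeq2 called 402 and 509 genes in these comparisons. It called more unchanged genes than limma or edgeR in simulated counts, but those covered only the p2 step and neither of these comparisons. Which tool is nearer the truth here was not tested. With 3 libraries of p2 on day 4 the errors are wide, and a test that finds 0 genes does not show that the cell types changed alike.

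Most genes called in p2 had a change of the same sign in the neighbours. Within p0-1 152 genes were called (1.09%) and within pMN 225 (1.61%). In p3, the most ventral type sorted (at 100 and 500 nM SAG), 591 were called (4.23%), 524 higher (3.75%) and 67 lower (0.48%). Of the 40 genes higher in p2, 40 had a log2 change above 0 in p0-1 and 40 in pMN, where 41.3% and 51.4% of all tested genes did, and 22 and 26 were called higher. Of the 37 genes lower in p2, 35 and 33 had a log2 change below 0 in p0-1 and pMN, where 58% and 47.9% of all tested genes did, and 17 and 16 were called lower. In p3, 38 of the 40 and 32 of the 37 had the direction of p2, and 27 and 8 were called in it. None of the 77 was called in the opposite direction in any of the 3 types. The median log2 changes of the 40 were 2.56 in p2, 1.78 in p0-1 and 2.19 in pMN, and those of the 37 were -5.98, -3.54 and -2.23. The genes were chosen for their change in p2, which makes the p2 medians larger.

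**Figure D5:**
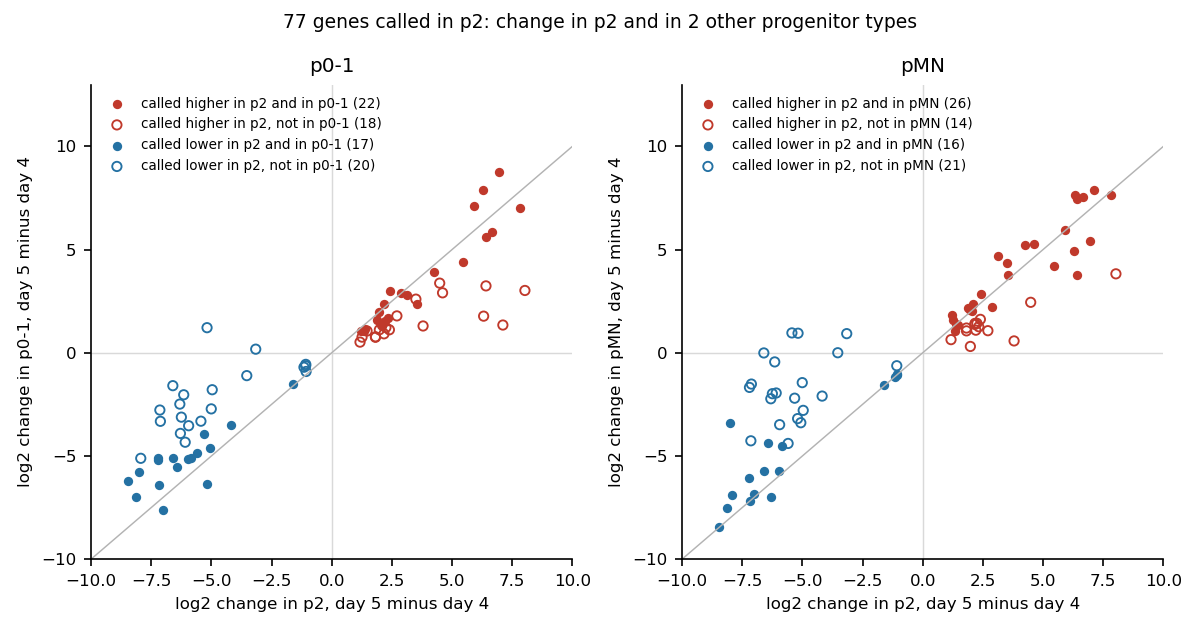
Log2 change from day 4 to day 5 of the 77 genes called in p2, with p2 on the x axis and p0-1 (left) or pMN (right) on the y axis. Filled circles were called in the same direction in both types and open circles in p2 and not in the other type, red higher and blue lower. All 40 red circles are above 0 in both panels, and the diagonal marks equal change.

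Gadd45g changed by 3.55 in p2, 2.37 (SE 0.33) in p0-1 and 3.79 (SE 0.35) in pMN on the log2 scale, and the difference between p2 and p0-1 was 1.19 (SE 0.50, adjusted p = 1). Fst had log2 changes of -8.12, -7.0 and -7.51 in the 3 types and Aldh1a2 of -7.24, -5.1 and -6.08. Hes3 had -8.01, -5.79 and -3.41, and the difference of -4.59 between p2 and pMN (SE 1.38) had an adjusted p of 0.964. Dll4 had log2 changes of 7.11 in p2, 1.34 (SE 1.46, adjusted p = 0.848) in p0-1 and 7.87 (SE 1.55, adjusted p = 0.00173) in pMN, and the difference of 5.77 between p2 and p0-1 (SE 2.24) had an adjusted p of 1. Hoxd3 changed by 1.88, 1.57 and 2.15, and Slc39a14 by 1.95, 1.99 and 2.07.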

How the data were processed

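The authors aligned the reads with STAR within an nf-core pipeline to mm10 with spike-in sequences and assigned them to refGene genes with featureCounts, ignoring duplicates and removing libraries that failed quality criteria. The strand setting of the counting is not given in the sources used here. The deposited values are an expression signal, read counts that the authors divided by 1 size factor per library, and 100% of the 834400 values above 0 were whole multiples (tolerance 1e-06) of the value of 1 read. Positions are those of the deposited annotation.

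Differences were tested with limma 3.58.1 (R 4.3.3; eBayes with trend) on log2(value + 1) for 13964 of 25239 genes with a mean of at least 10, fitted to all 65 libraries in 25 groups with library-weighted contrasts and tested two-sided. This scale shrinks the change of weakly expressed genes. A call required a p below 0.05 after Benjamini-Hochberg adjustment and more than 2-fold. edgeR 4.0.16 and DESeq2 1.42.0 were run on the recovered reads, and the fits were checked on simulated counts, in which DESeq2 called more unchanged genes than limma or edgeR. Those counts had dispersions estimated by edgeR and the same mean in all groups, apart from changes set in p2. Only the p2 step between the days was scored. Where every library of a day had at most 3 reads the fold is a lower limit against 3 reads, which covers counting error only.

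Named genes were, per direction, the 15 called genes with the largest change, a mean of at least 100 on 1 of the days and no overlap, with the genes of the sort and p2 lists, called list members (at most 6 per list) and up to 3 abundant members not called per list. The members and lists were chosen with earlier results of these data known. Outside this rule, and named after their values were seen, were Neurod4, Hes6, Dcx, Dll1, Hoxa4, Hoxc4, Haglr, Mir219a-2, Ckb, Slc39a14, Igdcc3, Gbp8, Kcnj3, Kcng2, Ifitm2, Eno1b, Slc16a3, Slc2a3 and Tmem97. A few genes are not reported here.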

Additional observations from a re-analysis of the deposited data

Results flagged for a closer look

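Among 142 genes tested for a single library far from the rest, 19 (13.4%) had a day 5 p2 library whose gap to the nearest other library, as a share of the range of the 6, was above Dixon's 95% limit. Chance gives about 1 in 20, but this rate does not hold for the 8 of the 19 whose other 5 libraries were at 0, where any read makes the gap the whole range. Replicate 3 at 100 nM held 6 of these, namely low values of Gbp8 (0) and Mir100hg (1.578 normalised reads) and high values of Aspg (11.04), Foxh1 (156.2), Galnt3 (7.1) and Tfcp2l1 (1.578). In the others the far value was that of AW551984 (3.316), Car12 (17.05), Crmp1 (11.31), Dnajc22 (39.73), Efna5 (5137), Fgf15 (0), Myof (131.2), Nexn (511.3), S100a1 (1.218), Shox2 (15.48), Sox21 (935.5), Tec (2.84) and Zfp345 (71.35).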

How the results depend on the processing

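The count of 77 genes called between day 4 and day 5 in p2 was 181 with no filter on low values (52 higher and 129 lower), 44 among genes with a mean of at least 100 (36 and 8), 35 at an adjusted p below 0.01, 259 with array weights (123 and 136), 24 at 100 nM alone, 10 at 10 nM alone and 40 in replicates 2 and 3 alone, which include the 3 day 4 libraries. It was 26 with edgeR, all among the 77, and 509 with DESeq2, which shared 55 of the 77 and called more unchanged genes than limma or edgeR in simulated counts. Leaving out 1 library at a time it ran from 34 to 75, and both values furthest from 77 came without a day 4 library at 100 nM (38 and 34). It stayed within 1.5 times of 77 with a pseudocount of 10 (86), quantile normalisation (74), equal weight for the SAG concentrations (56), the 9 p2 libraries alone (107, or 87 with a SAG term) and the number of genes detected in the model (53, added after the data were seen).

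The 0 genes that differed between the changes of p2 and p0-1 became 31 with no filter and 402 with DESeq2, and 0 to 1 when 1 library was left out. The 0 between p2 and pMN became 2 with a pseudocount of 10, 28 with no filter, 3 with array weights and 509 with DESeq2. Leaving out 1 library gave 0 to 9, with 9 without pMN replicate 3 at 100 nM and 5 without pMN replicate 3 at 500 nM, both of day 4. The cause was not tested for any of these shifts.

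With the replicate number as a block the counts were 81, 0 and 0. The numbers were not treated as pairs. The deviations of same-numbered p2 libraries had correlations of -0.00819 to 0.0332 (median 0.0157), against -0.0361 to 0.00756 (median -0.00274) for different numbers. These values are close to 0 but slightly higher for same numbers. The deviations were taken from day means over both SAG concentrations, with 3 libraries on day 4, so a shared effect of the replicate could be missed. The median SE was 1.02 on the log2 scale, with 3 libraries on day 4 and at least 7808243 reads per p2 library, and which of these limits the precision was not tested.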
